A study of Rattus norvegicus with 6 samples.

Results

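The distal end of chromosome 13 was taken as every restriction fragment of chromosome 13 that starts at position 95570181 or higher in rat genome build rn5. It lies more than 40 Mb above the viewpoint of a contact map, a gene promoter at about position 55570181. The rule gave 5870 fragments in each of 4 tables, which held between 794305 and 794360 rows each. These fragments were 17.8% of the 32982 rows of chromosome 13 that carry a window score. They span 23.1 Mb, between 95580324 and the last row, which ends at 118718031. Their median length was 2546 bp, against 2205 bp on the autosomes other than 13, and single fragments ranged between 7 and 43849 bp.

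The map was made by 4C-seq in rat cardiac endothelial cells, with EcoRI as the enzyme that cut the fixed chromatin. The study compared SS-13BN/Mcwi (SS13BN below), a consomic rat in which chromosome 13 comes from the Brown Norway strain and the other chromosomes from the Dahl salt-sensitive strain, with SS/JrHsdMcwi (SS below), the salt-sensitive strain itself. The rat reference genome is an assembly of the Brown Norway strain. Cells of both strains were at passage 2, were pooled from males and females and were fixed with 2% formaldehyde for 10 min, and no other treatment is given. Each strain had 3 libraries. In the third library of each strain chromosome 13 is listed at 0, so results on the distal end rest on SS13BN 1, SS13BN 2, SS 1 and SS 2. Nothing in the labels states that libraries of 1 strain are from different animals or cultures. The p-values below therefore measure only how much these libraries vary, and that variation may be technical. The cell type could not be checked against marker genes, because a contact map holds no expression values.

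In 4C-seq, fragments that lay close to the viewpoint in the nucleus are ligated to it and are then amplified and sequenced. Contact frequency usually falls with distance along the chromosome and then flattens. Far segments of the same chromosome are often still met more frequently than other chromosomes, because each chromosome tends to occupy a territory of its own, and segments of the same chromatin state tend to lie together. Coordinates are given as the deposited tables list them and may lie 1 base from those of a genome browser. No rn5 annotation was used here, so the genes of the distal end are not named and no sequence is given.

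The deposited values are scores of running windows, and they were solved for the state of each single fragment, captured or not captured. The captured share of all autosomes other than 13 was the level of comparison, and it was 10.1% and 17.7% in SS13BN 1 and SS13BN 2, against 12.6% and 10.2% in SS 1 and SS 2. Because long fragments were captured more often than short ones, each library's captured share on those autosomes in 20 classes of fragment length gave the number of captures expected in a region. The capture ratio used below is captured over expected fragments, so that a ratio of 1 is the level of the other autosomes.

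The distal end was captured more often than the other autosomes in all 4 libraries. In SS13BN 1, 1243 of its 5870 fragments were captured, or 21.2% (95% Wilson interval 20.1 to 22.2%), where 10.5% were expected. In SS13BN 2 it was 1820 fragments or 31.0% (29.8 to 32.2%), where 18.5% were expected. SS 1 had 1259 captured fragments, 21.4% (20.4 to 22.5%) against an expected 13.1%, and SS 2 had 1257, also 21.4% (20.4 to 22.5%), against 10.6%. These intervals cover counting error only.

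The capture ratio of the distal end was 2.01 and 1.68 in SS13BN 1 and SS13BN 2, against 1.64 and 2.02 in SS 1 and SS 2. It averaged 1.84 ± 0.207 (SD, n = 4), and the mean log2 ratio of 0.87 corresponds to 1.83-fold. All 4 libraries lay on the same side of 1, and the exact two-sided sign-flip permutation test gave p = 0.125, the smallest value that 4 libraries allow. The 2 libraries with the higher captured share on the other autosomes, SS13BN 2 and SS 1, had the lower ratios. The part of that share in the ratios was not tested. For comparison, the mean ratio of a whole chromosome among the other autosomes lay between 0.793 on chromosome 14 and 1.25 on chromosome 16, and it was 0.749 on the X chromosome. The distal end is only a part of a chromosome, and no stretches of like length on the other autosomes were compared. Shorter parts varied more, with means of the last 3 Mb between 0.549 on chromosome 18 and 1.66 on chromosome 12.

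The excess was present at every fragment length examined. For fragments shorter than 1000 bp the ratio was 2.21 and 2.05 in SS13BN 1 and SS13BN 2, against 1.77 and 2.43 in SS 1 and SS 2. For fragments of 5000 bp or more it was 1.68 and 1.44 in the SS13BN libraries, against 1.44 and 1.84 in the SS libraries. The 2 classes between these limits ranged between 1.69 and 2.24, so no library fell to 1 in any of the 4 classes.

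The distal end was also compared with the opposite end of the chromosome, the first part of chromosome 13, whose 3709 fragments lie more than 40 Mb below the viewpoint and end at 15571803. There the capture ratio was below 1 in every library, at 0.783 and 0.736 in SS13BN 1 and SS13BN 2 and 0.760 and 0.807 in SS 1 and SS 2. The ratio of the distal end over that of the first part was 2.57 and 2.28 in the SS13BN libraries and 2.16 and 2.51 in the SS libraries. The mean log2 difference was 1.25, or 2.37-fold, in the same direction in 4 of 4 libraries (exact sign-flip permutation p = 0.125, the smallest possible). When only the distal fragments no farther from the viewpoint than the first part reaches were used, the difference was 2.63-fold. At equal distance, the 2 ends of the chromosome thus had ratios on opposite sides of the level of other autosomes in all 4 libraries. In the first part, 16.2% of the fragments lay in runs of 50 or more neighbours that none of the 4 libraries captured. The share was 1.99% in the distal end and 4.33% on the other autosomes. Expected captures were adjusted for fragment length only, and the part of these runs in the difference was not tested.

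Against its neighbour, the stretch between 10 and 40 Mb above the viewpoint, the distal end had nearly the same capture. The mean ratio was 1.84 ± 0.207 for the distal end, against 1.85 ± 0.185 for the neighbour (SD, n = 4 each). The distal end over its neighbour was 1.03 and 0.983 in SS13BN 1 and SS13BN 2, and 0.976 and 0.985 in SS 1 and SS 2. The mean log2 difference was -0.012 (exact sign-flip permutation p = 0.625), and its sign turned under 2 alternative settings that are given in the closing section. The matching stretch between 10 and 40 Mb below the viewpoint had a mean ratio of 1.18 ± 0.0933.

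**Figure D1:**
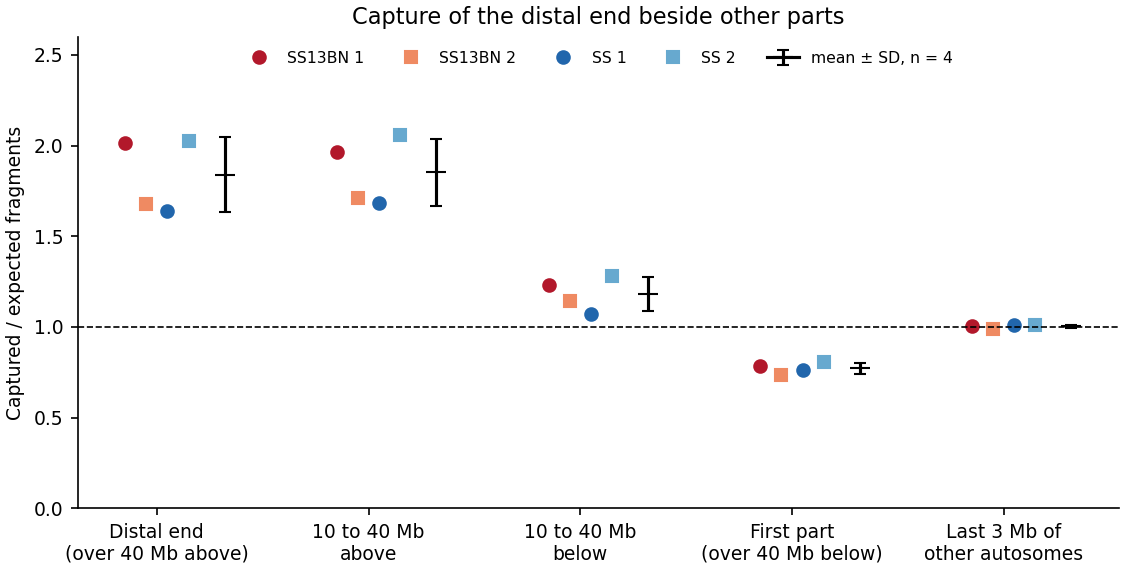
Capture ratio (captured over expected fragments, linear axis) of the distal end, of 3 other stretches of chromosome 13 and of the last 3 Mb of the other autosomes, with 1 point per library and the mean ± SD over 4 libraries beside them. The distal end and its neighbour 10 to 40 Mb above the viewpoint average 1.84 and 1.85, the first part of the chromosome 0.771, and the dashed line marks the level of the other autosomes.

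The other autosomes as a whole had no excess at their ends. Their last 3 Mb had a mean ratio of 1.003 ± 0.0104 (SD, n = 4). Single chromosomes varied there, between a mean of 0.549 on chromosome 18 and 1.66 on chromosome 12. The last 3 Mb of chromosome 13 had ratios of 1.35 and 1.44 in SS13BN 1 and SS13BN 2, against 1.14 and 1.47 in SS 1 and SS 2, which is inside that range. In its last 1 Mb the ratio was 0.958 and 1.25 in the SS13BN libraries, against 0.795 and 1.38 in the SS libraries, so the libraries lay on both sides of 1. That last 1 Mb has 355 fragments, and it holds runs of 60 and of 57 neighbours that none of the 4 libraries captured. The part of these runs in its ratio was not tested.

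Capture was uneven along the distal end. Between 40 and 45 Mb above the viewpoint the mean ratio was 1.24 ± 0.0678 (SD, n = 4), with 1.34 and 1.21 in SS13BN 1 and SS13BN 2 and 1.19 and 1.22 in SS 1 and SS 2. Between 45 and 50 Mb it was 2.67 ± 0.397, with 2.97 and 2.26 in the SS13BN libraries and 2.40 and 3.05 in the SS libraries. Between 50 and 55 Mb it was 2.39 ± 0.385, with 2.84 and 2.11 in the SS13BN libraries and 2.03 and 2.59 in the SS libraries. The 4 libraries of either of these bins lay above all 4 libraries of the first bin. Beyond 55 Mb the mean ratio was 1.44 ± 0.183 up to 60 Mb, and 1.39 ± 0.137 between there and the end of the chromosome. These 2 last bins did not differ beyond the spread of their libraries.

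**Figure D2:**
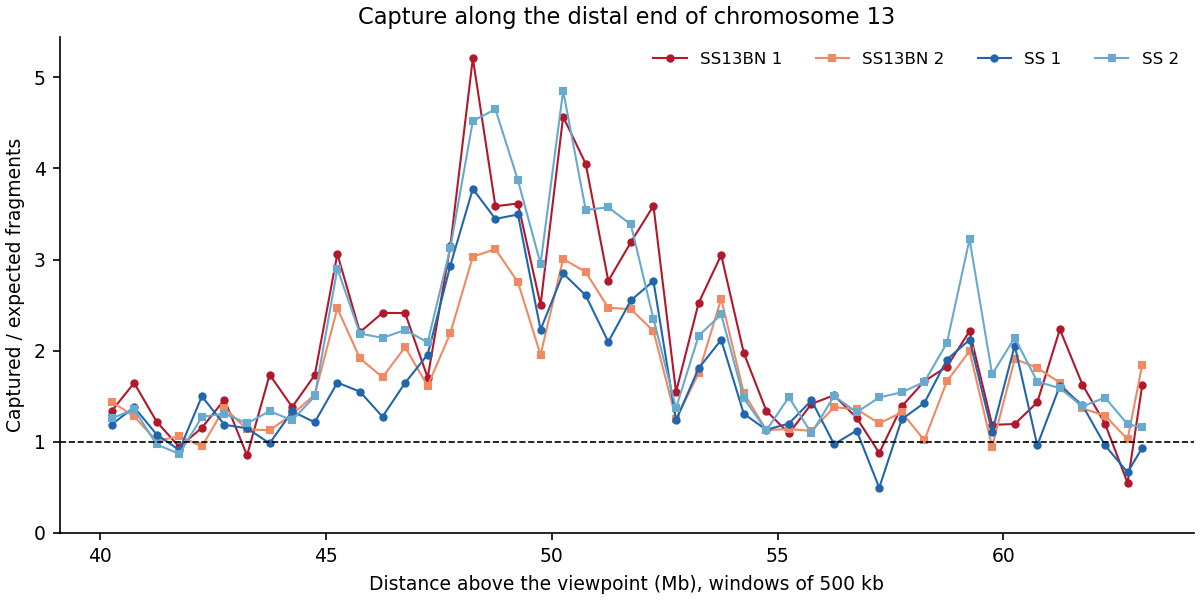
Capture ratio (linear axis) in windows of 500 kb along the distal end, against distance above the viewpoint in Mb, with 1 line per library. All 4 libraries climb at about 45 Mb, are highest between 48 and 51 Mb, and are lower beyond 54 Mb, where a second, lower peak near 59 Mb is followed by further windows above the dashed level of the other autosomes.

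The high stretch between 45 and 55 Mb above the viewpoint was delimited after its values were seen, and it is described without a test. It holds 41.3% of the distal fragments and 60.4% and 54.5% of the distal captures in SS13BN 1 and SS13BN 2, against 56.5% and 58.2% in SS 1 and SS 2. Its ratio was 2.90 and 2.18 in the SS13BN libraries, against 2.21 and 2.81 in the SS libraries. In the rest of the distal end the ratio was 1.37 and 1.32 in the SS13BN libraries, against 1.23 and 1.46 in the SS libraries. The rest alone still lay above the level of the other autosomes in 4 of 4 libraries, at a mean of 1.34-fold, and 1.74-fold above the first part of the chromosome. It was lower than the stretch 10 to 40 Mb above the viewpoint, at 0.727 times its ratio.

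In windows of 500 kb, a limma fit over 5211 windows of the genome compared the mean of the 4 libraries with the level of the other autosomes. Of 47 distal windows, 33 or 70.2% were above it at a Benjamini-Hochberg adjusted p under 0.05, against 20.3% of all windows tested. None of the 47 was below it, against 24.2% of all windows. The remaining 14 did not pass in either direction. The median log2 ratio was 0.51 over the distal windows and -0.03 over all windows. In 35 of the 47 windows all 4 libraries lay above 1, against 27.4% of all windows. Among the 20 windows between 45 and 55 Mb, 19 passed, and among the 27 others, 14 passed.

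The highest window, between 103570181 and 104070180, had 62 and 63 of its 106 fragments captured in SS13BN 1 and SS13BN 2, against 56 and 54 in SS 1 and SS 2. All 4 libraries had captured more than 50% of this window. Its ratio averaged 4.13 ± 0.940 (SD, n = 4), and the fitted log2 ratio was 1.94 with a standard error of 0.15 (limma, adjusted p = 1.8e-08). The window that starts at 105570181 came next, with 58 and 67 of 113 fragments captured in the SS13BN libraries, against 45 and 62 in the SS libraries, and a mean ratio of 3.82 ± 1.04. Between these lay the windows that start at 104070181, with 37 and 56 of 94 fragments in the SS13BN libraries against 44 and 48 in the SS libraries, and at 104570181, with 50 and 67 of 131 against 60 and 54. The fifth began at 106070181, with 50 and 62 of 115 fragments in the SS13BN libraries against 40 and 44 in the SS libraries. In these 5 windows the ratio of a single library was never below 2.61, and the ratios of the SS13BN and SS libraries overlapped in each of them.

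At its lower edge the ratio stepped up between 2 neighbouring windows, and this rise did not hold in the windows that followed. In the window that starts at 100070181, 23 and 35 of 131 fragments were captured in SS13BN 1 and SS13BN 2, against 20 and 20 in SS 1 and SS 2. In the next, which starts at 100570181, it was 39 and 55 of 120 fragments in the SS13BN libraries, against 26 and 37 in the SS libraries, and the log2 ratio was 1.24 after 0.54. The step was smallest in SS 1, with a capture ratio of 1.65 after 1.21. The windows that start at 101070181, 101570181, 102070181 and 102570181 were lower again, with log2 ratios of 0.92, 0.82, 0.99 and 0.83. In SS 1 the capture ratio was 1.27 at 101570181. In the window that starts at 103070181 the log2 ratio was 1.44. At the upper edge the log2 ratio was 1.28 in the window that starts at 109070181, 0.61 at 109570181 and 0.22 at 110070181, so the ratio fell before the stretch ended. Within the stretch, the window that starts at 108070181 was a dip, with 19 and 27 of 112 fragments in the SS13BN libraries, against 19 and 17 in the SS libraries (log2 ratio 0.40). Beyond the stretch, a second peak stood at 114570181, with 26 and 41 of 107 fragments in the SS13BN libraries, against 31 and 38 in the SS libraries (log2 ratio 1.17). This was above the windows that start between 101070181 and 102570181, inside the stretch. Farther on, the windows that start at 115570181 and 116570181 had mean ratios of 1.82 and 1.77. The window at 115570181 was named by its strain p, which comes from these same data. The other windows of this paragraph were picked after their values were seen.

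The lowest windows were close to the level of the other autosomes. The window that starts at 118070181, next to the end of the chromosome, had 10 and 33 of 192 fragments captured in SS13BN 1 and SS13BN 2, against 15 and 22 in SS 1 and SS 2, and a mean ratio of 0.858 ± 0.302 (SD, n = 4). It holds a run of 60 neighbouring fragments, and part of another run of 57, that none of the 4 libraries captured. The window that starts at 97070181 had 15 and 30 of 152 fragments in the SS13BN libraries, against 18 and 14 in the SS libraries, and a mean ratio of 0.945 ± 0.0837. The third, at 112570181, had 10 and 24 of 104 fragments in the SS13BN libraries, against 7 and 17 in the SS libraries, and a mean ratio of 1.01 ± 0.427. In each of these 3 windows the libraries lay on both sides of 1.

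The profile was shared between libraries. Over the 47 distal windows the ratios of any 2 libraries had a Spearman correlation between 0.755 and 0.848. For the pair of SS13BN libraries it was 0.848 and for the pair of SS libraries 0.808, and for pairs of different strains between 0.755 and 0.843. Over 4998 windows of the other autosomes the same pairs had correlations between 0.664 and 0.751. These are descriptions over windows, which are the same fragments in each library and are not replicates.

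At the level of single fragments, 309 of the 5870 distal fragments, or 5.26%, were captured in all 4 libraries, against 0.782% in the first part of the chromosome and 1.94% on the other autosomes. In the neighbour between 10 and 40 Mb above the viewpoint it was 340 of 8480 fragments, or 4.01%. These shares are not adjusted for fragment length. In the stretch between 45 and 55 Mb, 203 of 2423 fragments, or 8.38%, were captured in all 4, against 3.08% in the rest of the distal end. Another 469 distal fragments were captured in 3 libraries, 830 in 2 and 1276 in 1. The other 2986, or 50.9%, were not captured in any of the 4, against 49.3% of the fragments of the neighbour. The longest run of neighbouring fragments captured in all 4 libraries was 4 fragments between 103737394 and 103763649, inside the highest window.

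**Figure D3:**
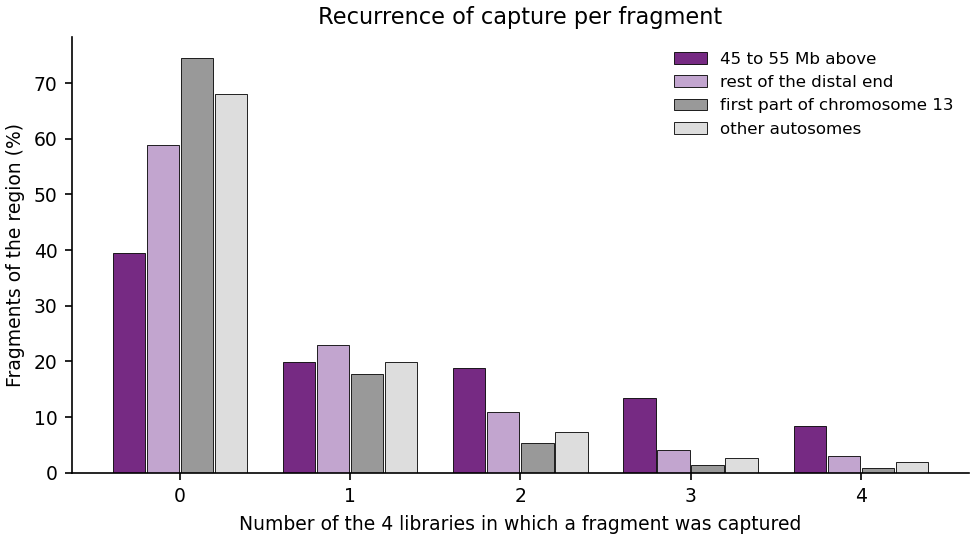
Share of fragments (percent) by the number of the 4 libraries in which they were captured, for the distal stretch 45 to 55 Mb above the viewpoint, the rest of the distal end, the first part of chromosome 13 and the other autosomes. Fragments captured in all 4 libraries are 8.38%, 3.08%, 0.782% and 1.94% of these regions. The stretch 10 to 40 Mb above the viewpoint, at 4.01%, is not drawn.

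Uncaptured stretches were few. There were 2 runs of 50 or more neighbouring fragments with no capture in any of the 4 libraries, with 60 fragments between 118120366 and 118266231 and 57 between 118429212 and 118588481. Both lie near the end of the chromosome. The first is inside the lowest window, and the second begins in it and ends in the last window of the chromosome. Together they hold 1.99% of the distal fragments, against 16.2% of the fragments in such runs in the first part of the chromosome, and 4.33% on the other autosomes.

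The study set the consomic strain against its parent strain, and the distal end is Brown Norway DNA in SS13BN. In SS13BN the distal end thus comes from the strain of the reference genome and the other autosomes do not, whereas in SS neither does. The part of this in the capture ratios was not tested. No difference between the strains was found over the distal end as a whole. The capture ratio averaged 1.85 ± 0.235 in SS13BN and 1.83 ± 0.271 in SS (SD, n = 2 each), and the libraries of the strains interleaved. The log2 difference, SS13BN minus SS, was 0.013 (exact two-sided permutation p = 1), where 2 libraries against 2 cannot give less than 0.333. With 1 SS13BN or 1 SS library left out the difference lay between -0.14 and 0.16, so its sign rests on single libraries.

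No distal window passed the strain test. With limma, 0 of 47 distal windows were higher and 0 lower in SS13BN at an adjusted p under 0.05, against 0% of all 5211 windows in either direction. At an unadjusted p under 0.05 it was 0 of the 47, against 3.88% of all windows. The differences lay between -0.45 and 0.65 on the log2 scale, and 28 of 47 were positive. The 95% interval of a distal window's difference reached a median of 0.63 to either side, and in simulated windows a 2-fold strain difference was called in 20% of cases and a 3-fold one in 86%. The simulated windows were drawn over the genome at the expected captures, a level that most distal windows exceed. These shares are therefore not measured for the distal windows themselves. In 8 of the 47 windows both SS13BN libraries lay above both SS libraries, against 16% of all windows, and in 6 both lay below, against 14.6%. Both shares are near those of the genome.

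The 3 windows with the smallest strain p are given as values. In the window that starts at 115570181, 15 and 42 of 113 fragments were captured in SS13BN 1 and SS13BN 2, against 32 and 27 in SS 1 and SS 2. After division by the expected captures both SS13BN libraries were below both SS libraries, with a log2 difference of -0.45 and a standard error of 0.30. The adjusted p of the limma fit was 0.999 for this window. The last window of the chromosome, which starts at 118570181, had 7 and 14 of 44 fragments in the SS13BN libraries, against 5 and 5 in the SS libraries (log2 difference 0.65, standard error 0.46). The window that starts at 97570181 had 18 and 26 of 156 fragments in the SS13BN libraries, against 29 and 20 in the SS libraries (log2 difference -0.38, standard error 0.30).

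**Figure D4:**
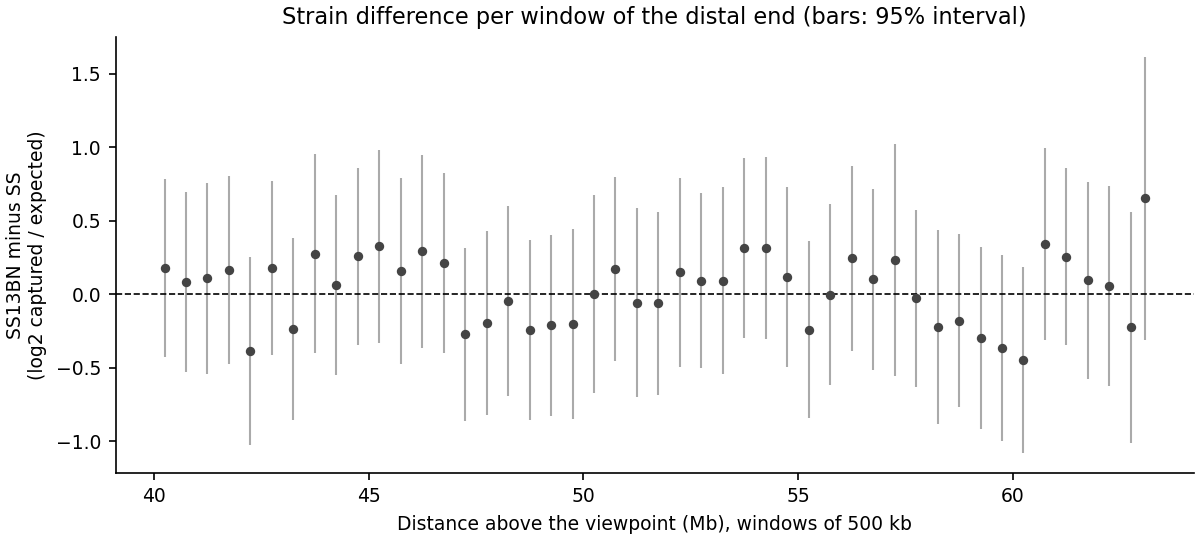
Difference in log2 capture ratio, SS13BN minus SS, for each of the 47 windows of 500 kb of the distal end against distance above the viewpoint in Mb, with the 95% interval of the limma fit as bars. All 47 intervals include 0, and the differences lie between -0.45 and 0.65.

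Strain differences were also counted for single fragments. Both SS13BN libraries and neither SS library captured 157 distal fragments, or 2.67%, against 1.22% of the fragments of the other autosomes. Both SS libraries and neither SS13BN library captured 58, or 0.988%, against 0.589% on the other autosomes. The first kind was the more frequent one in the distal end and also on the other autosomes. These shares are not adjusted for the higher capture of the distal end. SS13BN 2 had the highest captured share of the 4 libraries, and the part of that share in these counts was not tested.

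The scores as the authors deposited them compare a window of 37 fragments with a background of neighbouring fragments on chromosome 13, so they show local peaks and not the level against other chromosomes. Over the distal end they lay between -3.77 and 6.13 in SS13BN 1 and between -4.73 and 4.79 in SS13BN 2, against between -3.66 and 5.23 in SS 1 and between -3.73 and 5.52 in SS 2. A score of at least 2 was reached by 536 and 637 of the 5870 rows in the SS13BN libraries, against 602 and 571 in the SS libraries. In all 4 libraries at once it was 220 rows, or 3.75%, against 3.16% of all rows of chromosome 13 scored by windows. The share of the distal end is near that of the whole chromosome, of which it is part, and the local background of the scores limits how far such shares can differ.

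These 220 rows formed 20 segments, all between 103466072 and 106421492, 47.9 to 50.9 Mb above the viewpoint. The largest segment had 78 rows, between 103555864 and 103930935, and the next had 47 rows, between 105713033 and 105922766. The highest row by mean score lay between 103682635 and 103685232, with 6.13 and 4.79 in SS13BN 1 and SS13BN 2, against 5.23 and 4.79 in SS 1 and SS 2. The next lay between 105358169 and 105358704, with 3.16 and 4.78 in the SS13BN libraries, against 4.10 and 4.07 in the SS libraries. The third, between 104206500 and 104209563, scored 2.08 and 4.11 in the SS13BN libraries, against 3.77 and 4.82 in the SS libraries. The first and the third of these rows lie inside the highest and the third highest window of 500 kb.

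The background behind the deposited scores was constant over the last 3000 rows of the chromosome, which begin at 106696092. For those rows the background share was 27.8% and 37.6% in SS13BN 1 and SS13BN 2, against 26.6% and 27.3% in SS 1 and SS 2, and it equals the captured share of the rows between 100324416 and 112793584. The captured share of the last 3000 rows themselves was lower, at 18.6% and 29.0% in the SS13BN libraries, against 19.2% and 19.2% in the SS libraries. In the last 1500 rows the median deposited score was -1.94 and -1.67 in the SS13BN libraries, against -1.43 and -1.52 in the SS libraries. With a background recomputed around each row it was -0.79 and -0.62 in the SS13BN libraries, against -0.46 and -0.46 in the SS libraries. Rows of these 1500 with a score of at least 2 numbered 0 and 0 in the SS13BN libraries, against 5 and 22 in the SS libraries, as deposited. Recomputed, they numbered 9 and 116 in the SS13BN libraries, against 155 and 151 in the SS libraries. The count of rows at 2 or more in all 4 libraries over the whole distal end was 220 both ways.

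**Figure D5:**
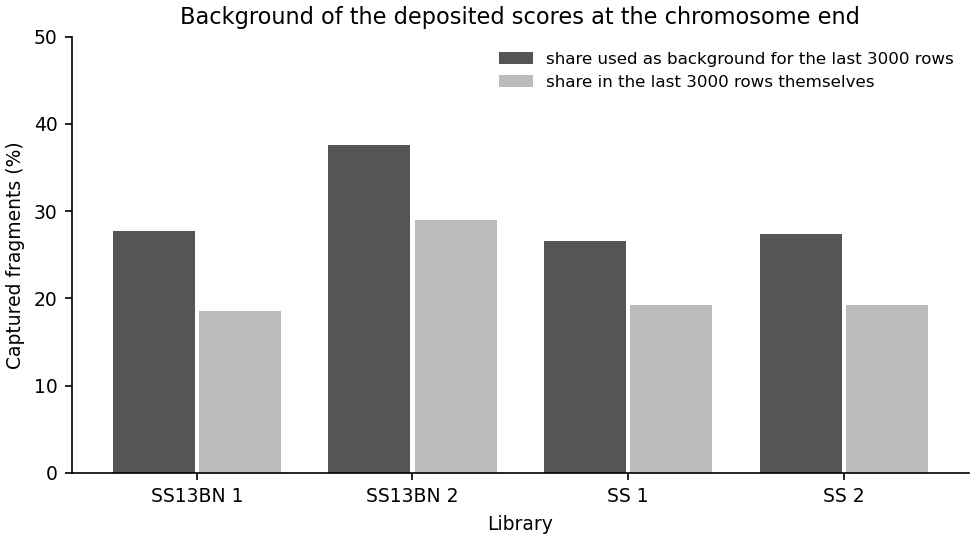
Captured share (percent) that the deposited scores of the last 3000 rows of chromosome 13 use as background, beside the captured share of those rows themselves, for each library. The background is the higher of the pair in all 4 libraries, 27.8% beside 18.6% in SS13BN 1 and 27.3% beside 19.2% in SS 2.

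The lower bound of the distal end was set by distance from the viewpoint, and the values beside it are given without a test. The first row inside, between 95580324 and 95582049, had scores of 2.79 and 1.24 in SS13BN 1 and SS13BN 2, against 1.82 and -0.54 in SS 1 and SS 2. The last row outside, between 95564519 and 95580323, had 2.80 and 1.25 in the SS13BN libraries, against 1.83 and -0.54 in the SS libraries. The windows behind the scores of these 2 neighbouring rows overlap almost entirely. Over the first 500 kb inside the capture ratio was 1.34 and 1.44 in the SS13BN libraries, against 1.19 and 1.26 in the SS libraries. Over the last 500 kb outside it was 2.48 and 1.71 in the SS13BN libraries, against 2.00 and 2.30 in the SS libraries.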

How the data were processed

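The authors deposited 1 table of scores per library, with 1 score for each EcoRI fragment. Per the submitters' processing notes the build was rn5 and CASAVA 1.8 was used, and the names of the aligner, the read filters and the scoring program were not given in the sources used here. From their values, scores on the 20 chromosomes other than 13 are a count k of captured fragments in a window of W = 501, minus its mean Wp, in units of the binomial SD, with p the chromosome's captured share. On chromosome 13 far from the viewpoint W is 37, and p comes from the nearest fragments of that chromosome (3001 counted, divided by 3000). Solving these equations gave each fragment's state and rebuilt 100% of the windows, with a tolerance of 2e-08. A captured fragment is taken as one with at least 1 read, and the number of reads behind it is unknown here, so depth is given as the captured share.

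Expected captures used 20 classes of fragment length. Windows of 500 kb with at least 40 fragments, without the X chromosome and without the part of chromosome 13 near the viewpoint that is scored otherwise, were fitted with limma 3.58.1 in R 4.3.3 on log2((captured + 1)/(expected + 1)) with a variance trend. P-values were adjusted by Benjamini-Hochberg over all 5211 windows, at a threshold of 0.05. Values over regions were tested over libraries with exact permutation tests. Simulated data over 5211 windows were drawn at the expected captures, with known changes in some windows. The fit called 100% of windows changed 2-fold in all libraries and 46% of those changed 1.5-fold. Of windows changed between strains it called 20% at 2-fold and 86% at 3-fold. Solving simulated scores recovered 100% of the states. Those scores were made with the same equations, so this checks the solving step only.

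Windows were named by rule: the 5 highest and 3 lowest by mean log2 ratio, the 3 with the smallest strain p as none passed, the 3 highest rows by mean score at least 500 kb apart, and the longest run captured in all 4 libraries. The region, its comparisons and these rules were chosen with earlier results of these data known. A planned list of genes was not looked up, because it needs an annotation of build rn5, which was not used here. SS13BN 3 and SS 3 were left out, since they list chromosome 13 at 0. The alternatives tried were other windows, filters, pseudocounts, bounds, scales and score thresholds, each library left out, and the replicate number as a block.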

Additional observations from a re-analysis of the deposited data

How the results depend on the processing

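The distal end stayed above the other autosomes and above the first part of chromosome 13 under every alternative run for these 2 results. With 1 library left out, the mean log2 ratio lay between 0.82 and 0.92 against the other autosomes, between 1.21 and 1.29 against the first part, and between -0.028 and -0.0037 against the stretch 10 to 40 Mb above the viewpoint. Against that stretch the sign turned to 0.025 without the adjustment for fragment length and to 0.13, or 1.09-fold, with the bound 5 Mb higher. In both of these settings all 4 libraries lay above that stretch (exact sign-flip permutation p = 0.125 each, the smallest possible). In the main setting they lay on both sides. The strain difference lay between -0.14 and 0.16 with 1 library left out. The number of distal windows above the other autosomes lay between 24 and 29 with 1 library left out, in fits that assume the lone library of a strain to vary like the others. It was 19 with windows of 1 Mb, which are fewer, and these were 79.2% of the distal windows, where 26.7% of all windows were called. With windows shorter than 500 kb it was 44 of 92, or 47.8%, where 13.2% of all windows were called. With 500 kb the shares were 70.2% and 20.3%. Windows that differed between strains were 0 of the distal windows in every alternative run. Over all windows, leaving out 1 library gave up to 6 higher and up to 8 lower in SS13BN. Rows scored in all libraries at once numbered 82 at a score of at least 3 and 462 at a score of at least 1, and between 238 and 301 with 1 library left out. With the replicate number as a block, 34 distal windows were above the other autosomes and 0 differed between strains, while over all windows 8 were higher and 7 lower in SS13BN, against 0 and 0 without the block. The strain difference of the whole distal end stayed at 0.013. Over the distal windows, the deviations of same-numbered libraries had a correlation of 0.23 between the strains, and with 2 numbers this does not show that the numbers pair the libraries. Leaving out the stretch between 45 and 55 Mb, and recomputing the score background at the chromosome end, were chosen after seeing the data. Each library's number of captured fragments limits what a single window can show.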
